A study of Mus musculus with 34 samples.

Results

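Hippocampal microglia of growth-restricted mice (FGR) were compared for 2 marks that compete for the same lysine of histone H3, the trimethylation H3K9me3 and the acetylation H3K9ac. The comparison took every library labelled FGR and H3K9me3, replicates 1 to 3, and every library labelled FGR and H3K9ac, replicates 1 to 3, so that 6 of the 34 samples of the series were its members. All mice, FGR and control (Ctrl) alike, carried the Tmem119-tdTomato reporter in the +/- state, which makes microglia fluorescent, and replicates 1 to 3 were taken at an age of 3 weeks. How growth restriction was brought about is not stated in the labels. They give no age for replicate 4, which was used only as a further library. Nothing in the labels says whether replicates came from separate animals or from pools, and the spread behind every p-value here may therefore be technical. The assay, ULI-NChIP-seq, precipitates native, unfixed chromatin from very few cells, and in such bulk samples fewer marked cells and less mark per cell cannot be told apart.

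H3K9me3 is laid down by the methyltransferases of the SUV39 and SETDB families and is bound by HP1 proteins, and it packs repeats, clusters of zinc finger and receptor genes and silenced germline genes into heterochromatin. H3K9ac is written by acetyltransferases such as KAT2A, is removed by histone deacetylases, and marks active promoters and enhancers. A lysine that carries acetyl groups cannot be methylated at the same time, so a place called for both marks in bulk chromatin may hold either mark on different histone copies, alleles or cells. Which of these holds was not tested here.

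The lists of H3K9me3 held 17701, 15195 and 22495 peaks on chromosomes 1 to 19 and X in replicates 1 to 3 and covered 11.3, 9.77 and 14.9 Mb, while those of H3K9ac held 78385, 86834 and 69768 peaks and covered 46.8, 51.9 and 41.2 Mb. The marks did not overlap in list size, and H3K9me3 was called as broad and H3K9ac as narrow peaks, so that mark and peak format cannot be told apart. Depth is unknown, since no read counts came with the lists. Of 12 microglia marker genes, 0 had H3K9me3 in any of the 3 libraries and 11 had H3K9ac in each (91.7%, against 70.7% of all genes), while Gpr34 had no peak of either. These counts do not single out microglia, since 5 of 5 endothelial and mural, 5 of 6 astrocyte and 6 of 8 oligodendrocyte markers also had H3K9ac in all 3 libraries. H3K9me3 was likewise absent from every library at 17208 of all 21631 genes, 8 of 8 oligodendrocyte and 6 of 6 lymphocyte and neutrophil markers. The summed H3K9ac length was 56.1 to 64.7 kb over the 12 microglia genes, 22.1 to 31.6 kb over 8 oligodendrocyte genes, 19.7 to 24.8 kb over 5 endothelial and mural genes, 18.3 to 23.4 kb over 8 neuron genes and 8.36 to 13.2 kb over 6 astrocyte genes. Genes of lymphocytes and neutrophils summed to 2.36 to 3.29 kb, and those of border-associated macrophages to 3.85 to 5.0 kb, over 6 genes each. The part of other cells in the results was not tested. The labels of the FGR active marks are not certain. Coverage at gene ends in FGR H3K9ac libraries correlated across 21631 genes with that in Ctrl H3K9ac libraries at a mean r of 0.748 and with Ctrl H3K4me3 at 0.641, but those labelled FGR H3K4me3 were also closer to Ctrl H3K9ac, at 0.909, than to Ctrl H3K4me3, at 0.822. Results that rest on H3K9ac are therefore given under the deposited labels, and the main ones also with the H3K4me3-labelled libraries in their place.

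Few annotated promoters carried H3K9me3. Of 32619 promoter windows in RefSeq (assembly GRCm38.p6), each reaching from 250 bases before to 50 bases after a start site, 10 lay under both marks in all 3 libraries of each, 31 under H3K9me3 and not H3K9ac, and 13042 under H3K9ac and not H3K9me3. The windows under both marks held a median of 15.5 CG dinucleotides, against 7 in those under H3K9me3 without H3K9ac, 22 in those under H3K9ac without H3K9me3 and 7 over all windows. At least 10 CG dinucleotides, a sequence that reads the same on both strands, were present in 43.8% of all windows. Under both marks it was 10 of the 10 windows, near the 88.6% of windows under H3K9ac without H3K9me3. Under H3K9me3 without H3K9ac it was 35.5%. Of those 10 under both marks, 8 belonged to long noncoding RNAs and 2 to predicted protein-coding genes. Protein-coding genes had 64.5% of all windows, 67.7% of those under H3K9me3 without H3K9ac and 87.3% of those under H3K9ac without H3K9me3. The following 6 windows are shown 5′ to 3′ with CG in capitals, as 2 examples of each kind, picked after their values were seen. Dazl, an RNA-binding protein gene of germ cells, and Zfp981, a zinc finger gene, are under H3K9me3, the first with many CG and the second with few. The lncRNA gene 1700030C10Rik and the predicted gene Gm45978 are under both marks. Sall1, a transcription factor gene of microglial identity, and Trem2, a lipid-sensing receptor of microglia, are under H3K9ac.
Dazl (chr17:50293571-50293870, minus strand): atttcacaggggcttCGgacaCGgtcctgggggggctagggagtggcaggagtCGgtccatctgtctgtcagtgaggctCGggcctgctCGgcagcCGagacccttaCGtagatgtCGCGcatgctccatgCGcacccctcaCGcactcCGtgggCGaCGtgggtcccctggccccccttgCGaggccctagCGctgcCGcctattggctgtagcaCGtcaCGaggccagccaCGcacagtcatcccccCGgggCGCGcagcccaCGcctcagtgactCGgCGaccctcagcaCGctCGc
Zfp981 (chr4:146514670-146514969, plus strand): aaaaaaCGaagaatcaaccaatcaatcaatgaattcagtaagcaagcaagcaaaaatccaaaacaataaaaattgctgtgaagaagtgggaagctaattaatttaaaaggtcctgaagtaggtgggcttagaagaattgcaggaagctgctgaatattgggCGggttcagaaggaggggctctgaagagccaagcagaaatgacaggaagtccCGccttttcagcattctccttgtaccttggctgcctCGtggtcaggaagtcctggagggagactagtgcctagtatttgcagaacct
1700030C10Rik (chr12:20815730-20816029, minus strand): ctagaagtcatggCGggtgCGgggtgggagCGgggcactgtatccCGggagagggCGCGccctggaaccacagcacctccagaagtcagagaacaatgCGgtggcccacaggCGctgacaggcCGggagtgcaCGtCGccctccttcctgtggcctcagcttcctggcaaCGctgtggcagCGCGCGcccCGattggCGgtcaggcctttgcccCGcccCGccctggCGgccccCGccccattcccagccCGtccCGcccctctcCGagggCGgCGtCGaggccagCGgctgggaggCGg
Gm45978 (chr7:29619227-29619526, plus strand): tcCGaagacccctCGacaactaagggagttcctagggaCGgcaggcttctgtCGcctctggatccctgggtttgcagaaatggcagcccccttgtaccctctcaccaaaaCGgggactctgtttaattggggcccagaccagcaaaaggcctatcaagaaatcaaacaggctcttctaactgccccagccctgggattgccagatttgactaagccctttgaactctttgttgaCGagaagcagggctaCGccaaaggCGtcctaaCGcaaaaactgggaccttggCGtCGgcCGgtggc
Sall1 (chr8:89043463-89043762, minus strand): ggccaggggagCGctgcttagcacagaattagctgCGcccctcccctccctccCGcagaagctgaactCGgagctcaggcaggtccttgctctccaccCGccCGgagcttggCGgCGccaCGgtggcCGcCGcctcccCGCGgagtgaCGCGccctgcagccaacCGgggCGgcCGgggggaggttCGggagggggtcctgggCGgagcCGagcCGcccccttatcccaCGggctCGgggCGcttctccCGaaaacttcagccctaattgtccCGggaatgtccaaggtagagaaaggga
Trem2 (chr17:48346151-48346450, plus strand): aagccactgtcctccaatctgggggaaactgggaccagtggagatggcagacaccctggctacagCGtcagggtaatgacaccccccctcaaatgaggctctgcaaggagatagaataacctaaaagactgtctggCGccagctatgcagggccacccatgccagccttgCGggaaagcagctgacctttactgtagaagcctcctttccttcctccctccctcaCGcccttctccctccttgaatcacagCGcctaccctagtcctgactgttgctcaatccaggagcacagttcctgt

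The Dazl window held 28 CG and was under H3K9me3 at all 300 bases in each of the 3 libraries, while H3K9ac covered 160 bases in replicate 1 and 0 in replicates 2 and 3. The Sall1 window, 1 of 3 listed for that gene, held 27 CG and had the opposite marks, with 0 bases under H3K9me3 and 300 under H3K9ac in each library. Windows of nearly the same CG content were thus found under either mark. Zfp981, with 4 CG, was under H3K9me3 at 300 bases and under H3K9ac at 0 in each library. Trem2, with 5 CG, had 0 bases under H3K9me3 and 298, 300 and 300 under H3K9ac.

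At 1700030C10Rik, with 29 CG, H3K9me3 covered 150, 285 and 300 bases and H3K9ac 300 in each library. Gm45978, with 12 CG, had 300 bases under H3K9me3 in each library and 291, 300 and 278 under H3K9ac. This window shares runs of 25 bases with 4 other windows under H3K9me3, of which Gm45988 was also under both marks and Gm40378, Gm52666 and LOC115488029 were not called for H3K9ac in all 3 libraries. The window of 1700030C10Rik shares such runs with that of Gm3973, which was under H3K9me3 at 300 bases and under H3K9ac at 0 in each library. Reads from near copies may be placed at any of them, so these calls are uncertain.

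H3K9me3 and H3K9ac peaks met at the same bases far more often than moved peaks did. Bases under both marks came to 2213 kb in replicate pair 1, 2250 kb in pair 2 and 1867 kb in pair 3. With the H3K9me3 peaks moved by 200 kb, the mean of both directions was 173, 163 and 202 kb. Every pair lay above its moved value, by a ratio of 12.8, 13.8 and 9.23, with a mean of 11.9 ± 2.4 (SD, n = 3). No p is given for this ratio, since positions are not replicates.

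The shared bases were a larger part of H3K9me3 than of H3K9ac. They made up 19.6, 23.0 and 12.5% of the bases under H3K9me3, against 4.73, 4.34 and 4.53% of those under H3K9ac. Pairing differently numbered libraries left the ratio between 9.23 and 14.3 over the 9 possible pairs. The overlap depended on the H3K9ac lists used. With both lists of a pair cut to the same covered length the share of H3K9me3 bases was 0.553% and the ratio 1.45, and with H3K4me3-labelled libraries in place of H3K9ac the share was 0.864% and the ratio 0.699.

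**Figure D1:**
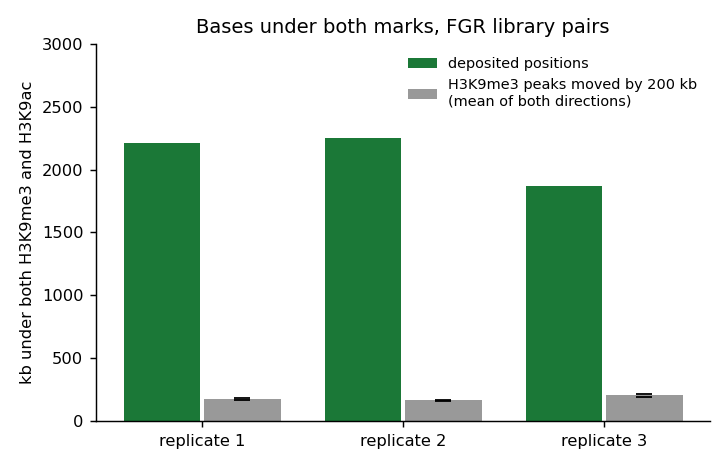
Bases in kb under both H3K9me3 and H3K9ac in the 3 FGR library pairs, at the deposited positions (green) and with the H3K9me3 peaks moved by 200 kb (grey, mean of both directions, with a tick for each direction). The deposited positions gave 1867 to 2250 kb and the moved ones 163 to 202 kb.

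The strongest peaks of the marks behaved differently. Among H3K9me3 peaks ranked by the authors' −log10 p within their list, the first decile overlapped H3K9ac in 41.8, 45.3 and 34.2% of cases and the last decile in 6.89, 13.3 and 4.18%. Overlap was higher in the first decile than in the last in all 3 libraries. Among H3K9ac peaks the first decile overlapped H3K9me3 least, in 0.970, 0.818 and 0.831% of cases. The third decile overlapped most, in 12.5, 12.1 and 9.39%. The share thus went down with rank for H3K9me3, while for H3K9ac it peaked inside the list. Peaks that overlapped were also wider, and an overlap of 1 base counted. Median widths in replicates 1 to 3 were 687, 675 and 791 bp for overlapping H3K9me3 peaks, against 441, 429 and 456 bp for the others. For H3K9ac they were 477, 491 and 437 bp, against 407, 406 and 405 bp. The part of width in these shares was not tested. The lists of equal covered length keep the H3K9ac peaks of highest −log10 p.

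**Figure D2:**
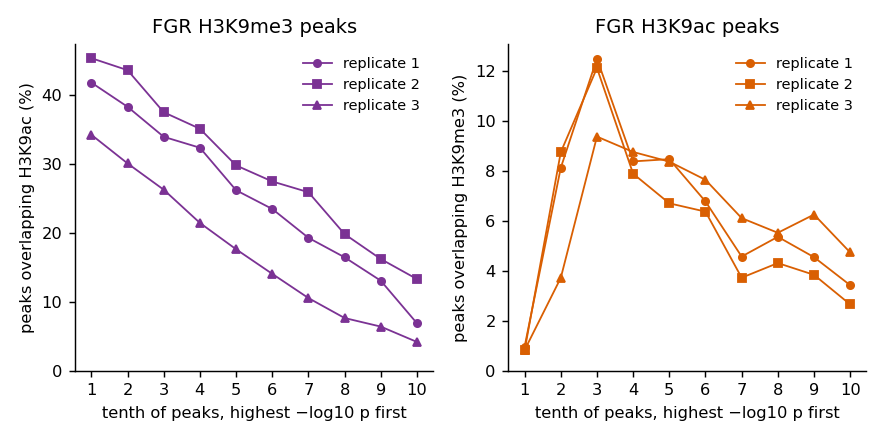
Percent of FGR H3K9me3 peaks that overlap an H3K9ac peak (left) and of FGR H3K9ac peaks that overlap an H3K9me3 peak (right), by decile of the list with the highest −log10 p first, 1 line per replicate. The share is 34.2 to 45.3% in the first decile for H3K9me3 and is highest, at 9.39 to 12.5%, in the third decile for H3K9ac.

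Peaks that recurred were joined into regions called in all 3 libraries of a mark, which gave 6393 regions of H3K9me3 and 35239 of H3K9ac. An H3K9ac region was met by 2301 H3K9me3 regions, or 36.0%, and an H3K9me3 region by 2438 H3K9ac regions, or 6.92%. Together they formed 2443 stretches under both marks with a length of 2175 kb, against 151 and 189 stretches after moves of 200 kb down and up. A peak of H3K9ac in at least 1 library was present at 62.1% of the H3K9me3 regions.

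Stretches under both marks lay where H3K9me3 alone lies, away from genes. Of the 2443, 27.8% fell in the window of a protein-coding gene (its span with 2.5 kb on each side), against 26.8% of 2423 regions of H3K9me3 alone and 83.0% of 31800 regions of H3K9ac alone. A region of a mark alone had no peak of the other mark in any of replicates 1 to 3. Regions that met such a peak, but no region called in all 3 libraries, are in none of these classes. On the chromosomes whose start sites were used, a start site lay within 1 kb of 1.95% of 2364 stretches under both marks, 2.16% of 2364 regions of H3K9me3 alone and 36.9% of 31030 regions of H3K9ac alone. The X chromosome held 5.65% of the stretches under both marks, against 1.53% of regions of H3K9me3 alone and 1.62% of H3K9ac alone.

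The longest stretch under both marks measured 7191 bp, on chromosome 10 from 27818420 to 27825610 (mm10), with no protein-coding gene within 2.5 kb. The authors' fold enrichment there was 3.57, 3.77 and 3.73 in the H3K9me3 libraries, against 14.9, 10.6 and 13.1 in the H3K9ac libraries. The second, of 5927 bp on X from 170012014 to 170017940, overlapped Erdr1, listed as a transcribed pseudogene. The third, of 5746 bp on chromosome 17 from 39843022 to 39848767, overlapped the ribosomal RNA pseudogene Rn18s-rs5 and AY036118. A stretch of 2909 bp on chromosome 1 from 171063927 to 171066835, next to the Fc receptor gene Fcgr3, held 5 transfer RNA genes. Its H3K9ac fold enrichment, 26.2, 28.9 and 27.9, was the highest among the 25 longest stretches, while that of H3K9me3 was 2.82, 2.77 and 2.88. Erdr1, ribosomal RNA and transfer RNA genes occur in near-identical copies, so peaks there are uncertain.

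The H3K9me3 regions were then looked up in the H3K9ac lists of both groups, which had no part in choosing them, with a test added after the data were seen. An H3K9ac peak was present at 52.2, 53.6, 44.0 and 55.7% of the 6393 FGR H3K9me3 regions in FGR H3K9ac replicates 1 to 4, against 0.407, 0.454, 0.454 and 0.407% in Ctrl H3K9ac replicates 1 to 4. The groups did not overlap, with 51.4 ± 5.12% in FGR and 0.430 ± 0.0271% in Ctrl (SD, n = 4 each; two-sided exact permutation p = 0.0286, the smallest that 4 against 4 libraries allow). Cut to the same covered length, the 8 libraries still gave 42.7 ± 8.89% in FGR and 0.372 ± 0.0347% in Ctrl (exact permutation p = 0.0286). Other FGR active marks were rare there, with H3K4me3 at 2.53 to 2.66% and H3K27ac at 0.939 to 1.22% of the regions. The labels of the FGR active marks are not certain, as stated above. With the H3K4me3-labelled libraries in place of FGR H3K9ac the FGR share would be those 2.53 to 2.66%, so the size of the difference rests on the labels. FGR H3K9ac lists held 54547 to 86834 peaks against 42197 to 47707 in Ctrl, and their median widths were 407 to 460 bp against 634 to 696 bp. The part of these list properties was not tested beyond the cut to equal length.

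FGR acetylation peaks stood mostly at the centres of the H3K9me3 regions, with a lower shoulder on either side. Within 500 bp of the centre, 27.2 ± 4.78% of bases lay under FGR H3K9ac peaks, against 0.192 ± 0.00542% under Ctrl H3K9ac (SD, n = 4 each). Between 4 and 6 kb from the centre the values were 1.99 ± 0.459% in FGR and 0.517 ± 0.00293% in Ctrl, and beyond 8 kb they were 1.05 ± 0.0936% in FGR and 0.801 ± 0.0284% in Ctrl. In Ctrl the centre held fewer H3K9ac bases than the flanks in each of the 4 libraries, and in FGR more. FGR H3K4me3 covered 0.780 ± 0.0115% at the centre and 0.811 ± 0.0335% beyond 8 kb.

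**Figure D3:**
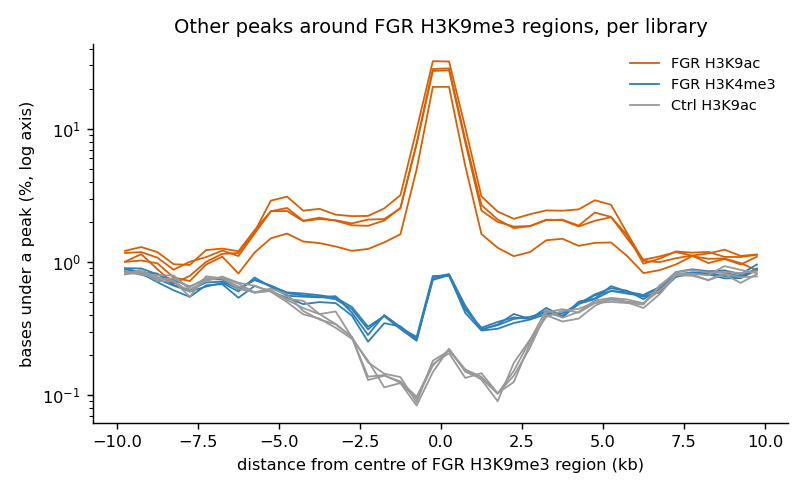
Percent of bases under a peak (log axis) by distance in kb from the centre of 6393 FGR H3K9me3 regions, 1 line per library, for FGR H3K9ac, FGR H3K4me3 and Ctrl H3K9ac (4 libraries each). The FGR H3K9ac lines peak at the centre at 20.7 to 32.2%, while the Ctrl H3K9ac lines stand at 0.186 to 0.198% there.

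Stretches under both marks lacked the other active marks that most H3K9ac regions had. FGR H3K4me3, a mark of active promoters, had a peak at 5.81 ± 0.10% of stretches under both marks, against 0.402 ± 0.0519% of regions of H3K9me3 alone and 66.6 ± 1.5% of regions of H3K9ac alone (SD, n = 4 libraries). FGR H3K27ac, a mark of active promoters and enhancers, had a peak at 2.76 ± 0.218% of stretches under both marks, against 0.227 ± 0.0533% of regions of H3K9me3 alone and 57.6 ± 2.76% of regions of H3K9ac alone. In each of the 4 libraries of both marks the stretches stood above H3K9me3 alone and below H3K9ac alone. Each of the 4 comparisons gave a two-sided exact permutation p of 0.125, the smallest that 4 pairs allow.

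**Figure D4:**
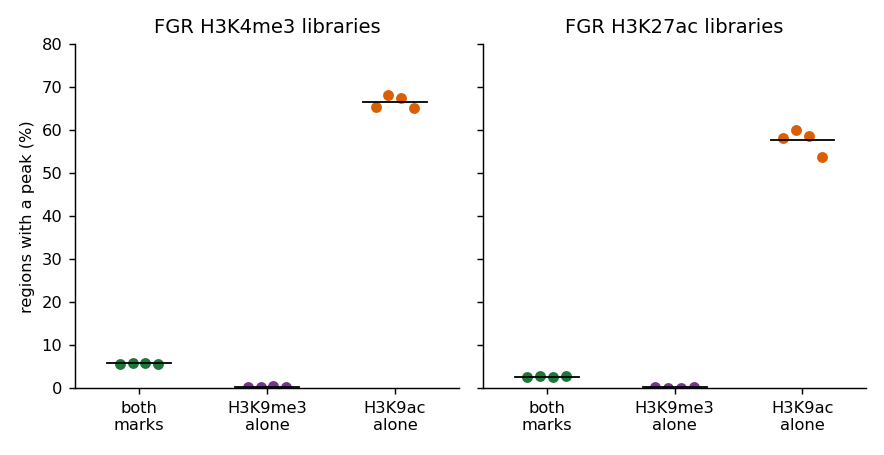
Percent of regions with a peak of FGR H3K4me3 (left) and FGR H3K27ac (right) at stretches under both H3K9 marks, regions of H3K9me3 alone and regions of H3K9ac alone. Points are the 4 libraries and lines their means, and stretches under both marks stand at 5.81% and 2.76%, near H3K9me3 alone.

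Genes were next sorted by the marks in their windows. Of 21631 protein-coding genes, 1431 had H3K9me3 in all 3 libraries (6.62%), 15301 had H3K9ac in all 3 (70.7%) and 1193 had both (5.52%), while 4045 had no peak in any of the 6 libraries. Thus 238 genes had H3K9me3 in all 3 libraries and not H3K9ac, and 14108 had H3K9ac and not H3K9me3. Of the genes with H3K9me3, 83.4% also had H3K9ac, against 77.0 and 75.9% after the 2 moves of the H3K9me3 peaks. The moves put 1604 and 1633 genes in the class with both marks, more than the 1193 observed, as moved peaks met more gene windows, 2082 and 2151. The count of genes with both marks thus lay below its moved values, while the share of H3K9me3 genes that also had H3K9ac lay above them.

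Within genes called for both marks the peaks were often apart. Bases were shared in every library pair at 561 of the 1193 genes, against 101 and 108 genes after the moves, and at 361 genes no pair shared a base. The class was made of long genes, with a median window of 152 kb, against 47.2 kb for genes with H3K9me3 and not H3K9ac, 25.8 kb for genes with H3K9ac and not H3K9me3 and 22.3 kb over all genes. From the shortest to the longest quartile of windows, 0.758, 0.869, 2.72 and 17.7% of genes were called for both. Near gene ends alone, within 2.5 kb of either end, 227 genes had H3K9me3, 13987 had H3K9ac and 115 had both.

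The percent of each gene window under peaks was then compared between the marks with limma on 16650 genes. H3K9me3 covered more than H3K9ac at 234 genes (1.41%) and H3K9ac covered more at 13804 (82.9%), with a median difference of −5.59 percentage points (H3K9me3 minus H3K9ac). Since antibodies and peak formats differ, the test compares called lengths and not amounts of the marks. With equal covered lengths, 649 genes had more H3K9me3 and 6460 more H3K9ac. With H3K4me3-labelled libraries the counts were 461 and 13888, and at a −log10 q of at least 2 they were 47 and 14407. Of the 234 genes, 79 had no H3K9ac in any library, 25 were Zfp genes, 14 of these on chromosome 4, and 71 were predicted genes named Gm or LOC. Over all 16650 genes tested, 208 had no H3K9ac, 383 were Zfp genes, 26 of these on chromosome 4, and 579 were named Gm or LOC.

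Zinc finger genes, a family many of whose proteins bring H3K9me3 to repeats through TRIM28, led the genes with more H3K9me3. Zfp992 (chromosome 4, 146449030 to 146469440) had 6.81, 7.25 and 7.42 kb under H3K9me3 and 0 kb under H3K9ac in each library, a difference of 28.2 percentage points (SE 0.665, limma adjusted p = 5.82e-06). Zfp978 (147124882 to 147392027) had 60.0, 63.0 and 62.8 kb under H3K9me3 against 4.18, 2.74 and 2.07 kb under H3K9ac (21.7 percentage points, limma adjusted p = 3.20e-06). At both genes the H3K9me3 lengths lay above the H3K9ac lengths in every library. Zfp978 was also called for both marks, and 3.48, 2.24 and 1.56 kb of its H3K9ac lay on H3K9me3. Zfp600, Zfp981 and Zfp982 lie in the same stretch of chromosome 4 and Zfp996 on chromosome 12. H3K9me3 exceeded H3K9ac by 12.7 percentage points at Zfp600, 17.6 at Zfp981, 15.1 at Zfp982 and 12.3 at Zfp996. These genes lie among close copies of each other, so peaks there are uncertain.

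The other genes among the 10 of smallest p were no zinc finger genes. Sfi1, a centrosomal protein gene (chromosome 11, 3131850 to 3203347), had 22.3, 20.4 and 21.8 kb under H3K9me3 and 4.81, 3.87 and 4.17 kb under H3K9ac, a difference of 22.5 percentage points, which became −7.65 when only gene ends were used (limma adjusted p = 0.0835). Ugt1a1, a bilirubin-conjugating enzyme of liver, had 2.59, 2.34 and 2.64 kb under H3K9me3 and no H3K9ac. Cyp3a41a, a liver cytochrome P450, had 2.93, 3.24 and 3.25 kb under H3K9me3 and no H3K9ac, and 5430401F13Rik had 1.65, 1.55 and 1.44 kb and none. The ranges of H3K9me3 and H3K9ac lengths were separate at each of these 4 genes.

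Of the 13804 genes with more H3K9ac, 11596 had 0 kb of H3K9me3 in every library. So did the 10 of smallest p. They were Erf, an ETS-family repressor, Zfp36l2, an RNA-binding protein that shortens messenger RNA life, Cox14, Tigd5, Rnf5, Lmf2, St6galnac4, Myadml2, H2bc23, a gene of a histone cluster, and Brd2, a reader of acetylated histones. Erf (chromosome 7, 25242560 to 25251104) had 8.34, 8.34 and 8.35 kb under H3K9ac (a difference of −61.6 percentage points, SE 0.164, limma adjusted p = 4.89e-08). Zfp36l2 (chromosome 17, 84183924 to 84187947) had 6.95, 6.96 and 7.02 kb (−77.3 percentage points). The 3 H3K9ac lengths were nearly equal at each of the 10, a low spread that ranking by smallest p favours. The marks differed by −28.5 to −43.2 percentage points at the other 8.

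Genes with the most bases under both marks were S100a7l2, Lsamp, Gpc5, Flg, Gm51572, Nell1, Galntl6, Ahnak2, Gm40814 and Pkd1l1. At S100a7l2 (chromosome 3, 91088137 to 91107429), of the S100 family of calcium-binding proteins, H3K9me3 covered 5.20, 4.32 and 4.21 kb and H3K9ac 4.48, 4.79 and 4.39 kb, of which 4.48, 4.0 and 3.96 kb were shared. The ranges of the marks overlapped (difference 0.106 percentage points, SE 1.25, limma adjusted p = 0.941). Most of the H3K9ac there lay on H3K9me3 in each library. Flg, for the skin barrier protein filaggrin in the same gene complex on chromosome 3 (93273546 to 93293689), had 10.3, 10.6 and 12.2 kb under H3K9me3 and 5.47, 4.05 and 3.13 kb under H3K9ac, with 4.90, 3.6 and 3.13 kb shared. H3K9me3 covered more in every library (27.1 percentage points, limma adjusted p = 0.000884).

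Ahnak2, a large scaffold protein gene (chromosome 12, 112772197 to 112802658), had the reverse, with 2.55, 2.71 and 3.89 kb under H3K9me3 and 15.3, 11.3 and 11.5 kb under H3K9ac, and 2.55, 2.71 and 3.67 kb shared. In replicates 1 and 2 all H3K9me3 lay on H3K9ac. The difference at Ahnak2 was −27.2 percentage points (limma adjusted p = 0.00109). It was 1.11 with equal covered lengths (limma adjusted p = 0.887) and 6.37 with H3K4me3-labelled libraries (limma adjusted p = 0.00243), so its direction rests on the H3K9ac lists. Gm51572, a predicted gene on chromosome 8 (55118424 to 55121522), had 6.31, 6.26 and 6.36 kb under H3K9me3 and 3.84, 3.13 and 3.03 kb under H3K9ac, of which 3.03 to 3.83 kb was shared.

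Very long genes, whose shared bases are a small part of the window, made up part of the same 10. Lsamp, a neuronal adhesion molecule whose window spans 2202 kb on chromosome 16, had 8.71, 7.54 and 8.87 kb under H3K9me3 and 4.25, 4.15 and 3.89 kb under H3K9ac, with at least 3.38 kb shared. Gpc5, a heparan sulfate proteoglycan with a window of 1438 kb, had 4.46, 4.32 and 5.55 kb under H3K9me3 and 5.55, 5.55 and 4.83 kb under H3K9ac. Nell1, a secreted protein with a window of 893 kb, had 8.59, 6.46 and 10.1 kb under H3K9me3 and 3.5, 4.27 and 3.35 kb under H3K9ac. None of the 3 passed the test (adjusted p = 0.309 for Lsamp, 0.843 for Gpc5 and 0.0537 for Nell1, limma). Galntl6 did not pass either (limma adjusted p = 0.966). H3K9me3 exceeded H3K9ac by 0.894 percentage points at Pkd1l1, within whose window Gm40814 lies (limma adjusted p = 0.0374). At a −log10 q of at least 2 the difference was −2.14 at Pkd1l1 (limma adjusted p = 0.00407) and −24.6 at Gm40814 (limma adjusted p = 0.00600), so the direction at both rests on the threshold.

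The genes that write, remove and read H3K9 marks carried acetylation. All 6 methyltransferase genes were under H3K9ac in all 3 libraries, against 70.7% of all genes. H3K9me3 in all 3 libraries was called at 0 of the 6, against 6.62% of all genes, so this 0 is near the background. Setdb1, the methyltransferase of the TRIM28 pathway, had 0 kb of H3K9me3 in each library and 1.12, 1.40 and 1.13 kb of H3K9ac, and Suv39h2 had 0 kb of H3K9me3 and 1.25, 1.55 and 1.27 kb of H3K9ac. Ehmt2 had the longest H3K9ac among them, with 7.11, 7.77 and 3.79 kb. H3K9ac covered more at 6 of 6 methyltransferases, 11 of 11 demethylases, 7 of 7 acetyltransferases, 14 of 16 deacetylases and 13 of 14 readers and cofactors by limma, and H3K9me3 at 0 of them, beside 82.9% and 1.41% of all genes tested.

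Both marks were called at 4 of these enzyme and reader genes, namely 1 of 11 demethylases, 2 of 14 readers and cofactors and 1 of 16 deacetylases, while 5.52% of all genes had both. These small counts were near the background. The demethylase gene Phf8 on X had 1.29, 0.925 and 1.15 kb under H3K9me3 and 2.17, 3.41 and 2.07 kb under H3K9ac. The SETDB1 partner gene Atf7ip had 0.504, 0.341 and 0.879 kb under H3K9me3 and 1.16, 1.70 and 0.657 kb under H3K9ac. At Phf8 the values did not overlap (limma adjusted p = 0.0282), and at Atf7ip they did (limma adjusted p = 0.158). Smchd1, a silencing factor of the inactive X, had 0.520, 0.975 and 0.522 kb under H3K9me3 and 1.41, 1.95 and 1.51 kb under H3K9ac, and shared no base between the marks, as was the case at Atf7ip. At the deacetylase gene Hdac9 the marks shared 0.280, 0.674 and 0.481 kb, which was part of an H3K9ac length of 2.52, 4.97 and 2.68 kb.

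**Figure D5:**
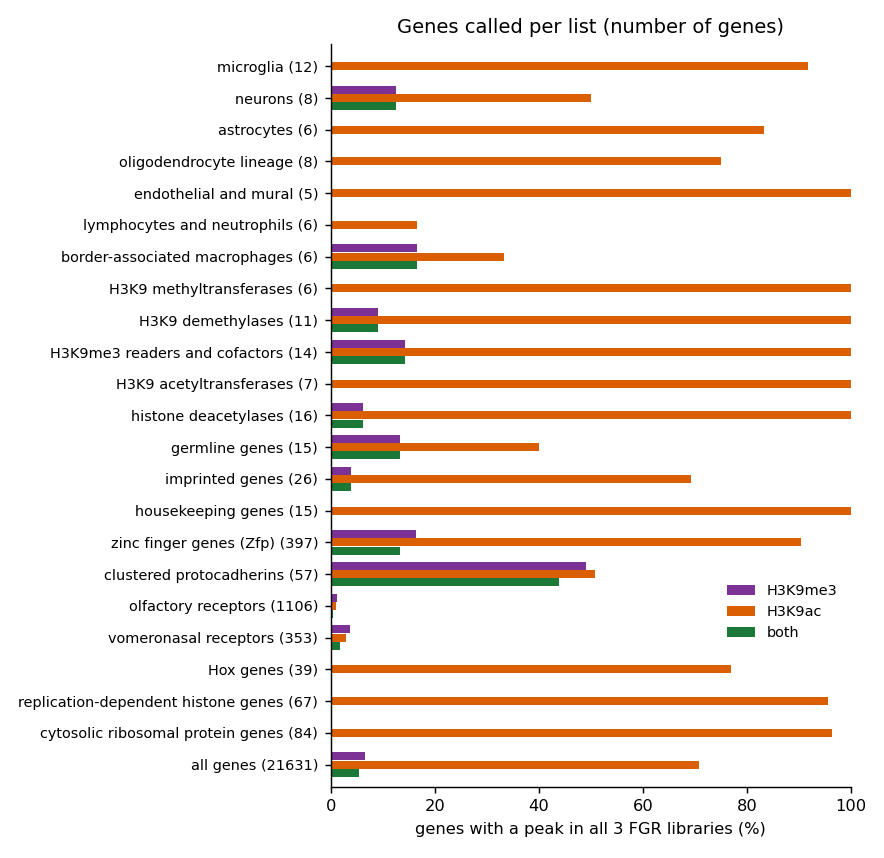
Percent of genes in each list with a peak in all 3 FGR libraries of H3K9me3, of H3K9ac and of both, with the number of genes in parentheses and all genes in the last row. Clustered protocadherins (49.1%) and Zfp genes (16.4%) exceed the 6.62% of all genes for H3K9me3, and microglia, housekeeping and Hox lists stand at 0. Window lengths differ between lists, and all genes in the longest quartile of windows stand at 19.9%.

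Housekeeping, ribosomal protein, histone and Hox genes, the last a family of developmental regulators, had H3K9ac and no call for H3K9me3 in all 3 libraries. H3K9me3 was called in all 3 libraries at 0 of 15 housekeeping genes, 0 of 84 cytosolic ribosomal protein genes, 0 of 67 replication-dependent histone genes and 0 of 39 Hox genes, beside 6.62% of all genes. Windows in these lists are short, with medians of 5.50 to 10.4 kb, and in the shortest quartile of windows 1.29% of all genes had H3K9me3, so counts of 0 are near the background. H3K9ac was called at 15 of 15 housekeeping, 81 of 84 ribosomal protein, 64 of 67 histone and 30 of 39 Hox genes, beside 70.7% of all genes. Actb, for β-actin, had 0 kb of H3K9me3 in each library and 6.47, 7.68 and 6.65 kb of H3K9ac. Of the microglia genes tested, H3K9ac covered more at 11 of 11, beside 82.9% of all genes tested. This does not set them apart, since the same held at 5 of 5 astrocyte, 6 of 6 oligodendrocyte and 5 of 5 endothelial and mural genes. It also held at 3 of 6 neuron genes, 2 of 3 of border-associated macrophages and 1 of 1 of lymphocytes and neutrophils. Sall1 had 0 kb of H3K9me3 and 12, 12 and 11.3 kb of H3K9ac, and Tmem119 had 0 kb of H3K9me3 and 6.14, 7.93 and 7.31 kb of H3K9ac. Among markers of other cell types, H3K9me3 was called in all 3 libraries at 2 genes, Rbfox3 of neurons and Mrc1 of border-associated macrophages, no larger a share than the 6.62% of all genes. Each was also called for H3K9ac.

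Clustered gene families differed in their H3K9me3. Among 57 clustered protocadherins, adhesion molecules that neurons express in varied combinations, 28 had H3K9me3 (49.1%, against 6.62% of all genes). H3K9ac was called at 29 (50.9%, against 70.7%) and both at 25 (43.9%, against 5.52%), of which 7 shared bases in every pair. The median protocadherin window was 95.3 kb, and in the longest quartile of windows 19.9% of all genes had H3K9me3 and 17.7% both. The first exons of clustered protocadherins are spliced to common ones, so their windows overlap and members are not independent. H3K9me3 covered more at 3 of 45 tested (Pcdha1, Pcdha2 and Pcdha3), or 6.67%, against 1.41% of all genes tested. H3K9ac covered more at 21 (46.7%, against 82.9%), with a list median of −2.67 percentage points. Counts were small among 1106 olfactory receptors, with 14 under H3K9me3 (1.27%), 10 under H3K9ac (0.904%) and 4 under both (0.362%). They were also small among 353 vomeronasal receptors, with 13 under H3K9me3 (3.68%), 10 under H3K9ac (2.83%) and 6 under both (1.70%). Receptor windows are short, with medians of 5.95 and 5.96 kb. In the shortest quartile of windows 1.29% of all genes had H3K9me3, 43.7% had H3K9ac and 0.758% had both. Most receptors had a peak in fewer than 2 of the 6 libraries and were not tested, 1070 of the olfactory and 321 of the vomeronasal. Among the rest H3K9me3 covered more at 5 olfactory and 8 vomeronasal receptors (13.9 and 25%, against 1.41% of all genes tested). H3K9ac covered more at 4 olfactory receptors and 1 vomeronasal receptor (11.1 and 3.13%, against 82.9%). Receptors entered the test through peaks of either mark, and few had H3K9ac, so H3K9me3 itself helped to admit those tested. These shares therefore depend on the filter and do not show an excess of H3K9me3 in the families. Vmn1r48, a pheromone receptor gene on chromosome 6, was the receptor with the most shared bases. It had 2.07, 1.89 and 2.68 kb under H3K9me3 and 1.95, 2.11 and 2.27 kb under H3K9ac, of which 1.67, 1.89 and 2.27 kb was shared.

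Of 397 Zfp genes, 65 had H3K9me3 (16.4%, against 6.62% of all genes), 359 had H3K9ac (90.4%, against 70.7%) and 53 had both (13.4%, against 5.52%). Bases were shared in every pair at 10 of the 53, against 561 of the 1193 genes with both over all genes. H3K9me3 covered more at 25 of 383 tested (6.53%, against 1.41% of all genes) and H3K9ac at 273 (71.3%, against 82.9%). The marks differed in where along these genes they were most frequent. Over 331 Zfp genes with a known strand, H3K9ac covered 35.6 ± 0.648% of the first decile of the gene body and 3.19 ± 0.558% of the last, against 27 ± 0.970% and 5.58 ± 0.745% over 17274 genes (SD, n = 3). H3K9me3 covered 0.696 ± 0.183% of the first decile and 2.31 ± 0.628% of the seventh, 2.37 ± 0.823% of the ninth and 1.40 ± 0.232% of the last, against 0.284 ± 0.0619%, 0.407 ± 0.0769%, 0.397 ± 0.0849% and 0.282 ± 0.0427% over all genes. The decile with the most H3K9me3 was the ninth in replicate 1 and the seventh in replicates 2 and 3. H3K9ac covered more than H3K9me3 on average in the first, the ninth and the last decile. At Zfp69 the marks shared 1.42, 1.04 and 0.988 kb, and at Zfp52 1.11, 0.773 and 0.721 kb, and H3K9ac covered more at both. With equal covered length the direction at Zfp69 turned, to 2.90 percentage points more H3K9me3 (limma adjusted p = 0.00185).

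Germline and imprinted genes gave small counts. Of 15 germline genes, 2 had H3K9me3 (13.3%, against 6.62% of all genes) and 6 had H3K9ac (40%, against 70.7%), and the 2 were Dazl and Sycp1, a synaptonemal complex gene, each with both. Dazl had 0.967, 0.626 and 0.943 kb under H3K9me3 and 1.19, 0.923 and 0.942 kb under H3K9ac across its window, of which 0.273, 0.229 and 0.400 kb was shared (adjusted p = 0.254, limma). Its acetylation thus lay mostly outside the promoter window printed above. Of 26 imprinted genes, 1 had H3K9me3 and 18 had H3K9ac, and these shares of 3.85% and 69.2% were close to those of all genes. The 1 was Snrpn (chromosome 7, 59982495 to 60450177), the gene of the Prader-Willi imprinting centre, with 2.19, 2.63 and 2.4 kb under H3K9me3 and 2.03, 2.09 and 2.44 kb under H3K9ac, of which 0.898, 0.903 and 1.09 kb was shared.

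Replicate 4 chose none of these genes or regions, and its H3K9me3 list has narrow peaks. The peak names inside that list carry the number 5 and not 4, so its place in the series is not certain. It is given here under its deposited label. Of the 1193 genes called for both marks, 75.1% had H3K9me3, 99.0% had H3K9ac and 74.3% had both in replicate 4, against 3.06% with both among genes with H3K9ac and not H3K9me3. Of the stretches under both marks, 81.2% had an H3K9me3 peak and 97.7% an H3K9ac peak in replicate 4. Of regions of H3K9me3 alone, 50.1% had H3K9me3 and 7.02% had H3K9ac. Of regions of H3K9ac alone, 0.0975% had H3K9me3 and 87.8% had H3K9ac. The shared bases of replicate 4 were 38.6% of those under H3K9me3, and the ratio to moved peaks was 36.3.

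The H3K9me3 lists of FGR and Ctrl were deposited with different thresholds, so the groups were compared at a −log10 q of at least 2 in every list. More of the H3K9ac bases lay under H3K9me3 in FGR than in Ctrl. The share was 2.07, 2.67 and 2.16% in FGR pairs 1 to 3, against 0.00166, 0.00793 and 0.0131% in Ctrl pairs. The groups did not overlap (two-sided exact permutation p = 0.1, the smallest that 3 against 3 pairs allow). Ctrl had 28, 35 and 37 H3K9me3 peaks past that threshold and FGR 4347, 6053 and 5193, so list length and group cannot be told apart in this share. The ratio to moved peaks, which also moved with the threshold and length of the lists, was 28.1, 22.1 and 20.2 in FGR, against 0.483, 23.5 and 11 in Ctrl. Here the groups overlapped, with 23.5 ± 4.12 in FGR and 11.7 ± 11.5 in Ctrl (SD, n = 3 each; two-sided exact permutation p = 0.3). The Ctrl ratios rest on 0.706, 3.47 and 5.73 kb of shared bases over 1.46, 0.148 and 0.519 kb after the moves, so this comparison says nothing about a difference between the groups. With the 12 libraries of both marks cut to the same covered length, the ratio was 1.43 ± 0.0931 in FGR and 0.0179 ± 0.0115 in Ctrl (exact permutation p = 0.1). That cut kept 10037, 11388 and 13604 Ctrl H3K9me3 peaks, nearly all of them below a −log10 q of 2. Peak significance and group therefore cannot be told apart in this ratio.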

How the data were processed

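ULI-NChIP-seq peak lists of 3 FGR H3K9me3 and 3 FGR H3K9ac libraries were compared, and 20 further lists of the series served as background. The build was mm10, and the tools were MACS2 2.2.7.1, Bowtie2 2.4.5, Trim Galore 0.6.5, DiffBind 3.12.0 and SAMtools 1.3.1, per the submitters' processing notes. The roles of these tools, the calling options and any control were not given in the sources used here. A peak's fold is the authors' ratio of its signal to the background around it. Its −log10 p and −log10 q were deposited within its own list, as was a whole-number score by the authors, which was left unused. Lists were made per library, as broad peaks for H3K9me3 replicates 1 to 3 and narrow peaks otherwise. Depth is unknown, and 3 libraries per mark limit the precision.

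Peaks on chromosomes 1 to 19 and X were merged per library, and an overlap of 1 base counted. For the comparison with moved positions, the H3K9me3 peaks were shifted by 200 kb both ways. Gene windows were the RefSeq span with 2.5 kb on each side. The percent of each window under peaks was compared between marks with limma 3.58.1 (R 4.3.3, two-sided, Benjamini-Hochberg adjustment over all genes tested, threshold 0.05) on the 16650 genes with a peak in at least 2 of the 6 libraries. Differences are H3K9me3 minus H3K9ac in percentage points of the window. Other values came from Python 3.11.15, numpy 2.4.6, pandas 2.3.3 and scipy 1.17.1, and figures from matplotlib 3.10.9. The limma fit was tested on simulated data.

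Named genes were the 10 of smallest p in each direction on separate windows, the 10 with the most bases under both marks, and in each list the member highest in either mark and up to 4 called for both. Members and lists were chosen with earlier results of these data known. Alternatives covered the −log10 q threshold, equal covered length, H3K4me3-labelled libraries, replicate 4, gene ends (the 2.5 kb on either side of each end), shifts of 50 kb and 1 Mb, the number of libraries required, a log2 scale with 0.1 kb added, no gene filter, limma's trend, a replicate block and each library left out. At most 0.110% of a list recurred with the same start and end in another replicate.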

Additional observations from a re-analysis of the deposited data

Results flagged for a closer look

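Among 27 groups of 4 libraries checked for a library far from the others, 1 was found, and chance alone gives about 1 in 20. FGR H3K9ac replicate 4 had a median peak width of 460 bp, against 407 to 411 bp in FGR H3K9ac replicates 1 to 3. This library was outside the comparison of the marks and gave the highest share of H3K9me3 regions with an H3K9ac peak, 55.7%.

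Sequences not placed on a chromosome were outside all comparisons. FGR H3K9ac libraries had a mean of 105 peaks there (113, 116 and 86), against 9, 9 and 8 in Ctrl H3K9ac libraries. FGR H3K9me3 libraries had 199, 231 and 227 peaks on the same kind of sequence.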

How the results depend on the processing

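The overlap of the marks rested on the H3K9ac lists. The share of H3K9me3 bases and the ratio to moved peaks, 18.4% and 11.9, became 0.553% and 1.45 with equal covered length, 0.864% and 0.699 with H3K4me3-labelled libraries, and 28.1% and 23.5 at a −log10 q of at least 2. A shift of 50 kb gave a ratio of 14.6. Genes called for both marks, 1193, came to 2162 with a peak in 2 of 3 libraries, 328 at a −log10 q of 2, 343 with equal covered length and 115 at gene ends. Stretches under both marks, 2443, came to 543 at a −log10 q of 2 and 4649 with 2 of 3 libraries. Genes with more H3K9me3, 234, came to 461 with H3K4me3-labelled libraries, 649 with equal covered length (6460 with more H3K9ac, against 13804), 111 at gene ends and 47 at a −log10 q of 2. The cause of these moves was not tested.

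With 1 library left out, genes with more H3K9me3 numbered 179 to 263 and those with more H3K9ac 12913 to 14163, genes called for both 1207 to 1603, the ratio 11 to 13.3 and the share 16.0 to 21.3%. FGR minus Ctrl in the share of H3K9me3 regions with H3K9ac was 49.5 to 53.4 percentage points, with p = 0.0571 each time, the smallest exact permutation p that 3 against 4 libraries allow. H3K4me3 at stretches under both marks minus that at H3K9ac alone stayed between −61.2 and −60.2 percentage points, and H3K27ac between −56.3 and −54.1. FGR minus Ctrl in the ratio at a −log10 q of 2 ranged from 3.88 without replicate 1 to 18.3 without replicate 2.

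Of named genes, 21 values changed sign. With equal covered length the difference was 0.488 at Mrc1, 2.90 at Zfp69, 0.312 at Flt1, 1.03 at Aldh1l1, 3.47 at Olfr631, 0.383 at Galntl6, 0.378 at Rbfox3, 1.11 at Ahnak2, 0.310 at Gpc5 and 5.6 at Olfr126. With H3K4me3-labelled libraries it was 3.47 at Olfr631, 0.255 at Rbfox3, 6.37 at Ahnak2 and 5.6 at Olfr126. At a −log10 q of 2 it was −0.545 at Sycp1, −2.14 at Pkd1l1, −24.6 at Gm40814, −0.101 at Pcdha1, −0.203 at Pcdha2 and −0.143 at Pcdha3, and at gene ends −7.65 at Sfi1. Another 111 values of named genes fell behind the threshold, 71 passed it and 2377 kept their side of it. Changes of sign where neither fit passed the threshold are counted among the 2377.

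Deviations of same-numbered libraries correlated across genes at 0.00665, 0.000577 and −0.0202, and those of differently numbered libraries at −0.0200 to 0.0176. Of the 16650 genes tested, 12482 had no H3K9me3, so these values cannot decide whether same-numbered libraries were paired. A fit with the replicate block called 168 genes with more H3K9me3 and 13098 with more H3K9ac, of which 162 and 13073 were also called without it.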
